A study of Mus musculus with 9 samples.

Results

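The uncoupling proteins encoded by Ucp1, Ucp2 and Ucp3 are carriers of the inner mitochondrial membrane, and their mRNAs were followed here in brown adipose tissue of obese mice given vehicle or cotadutide. The 3 genes were found by matching the Ensembl identifiers in the count tables to their symbols. All 3 were among the 49315 genes listed and among the 14747 that passed a filter on low counts. The tissue came from male C57Bl/6J mice with obesity from a 60% high fat diet. All of them shared this strain and diet, an age of 14 weeks, 3 weeks of acclimation and a weight of around 50 g on the diet. All were housed singly and not at thermoneutrality. For 28 days they were injected daily under the skin with vehicle (4 mice) or with cotadutide (5 mice), a peptide that activates both the receptor for glucagon and that for glucagon-like peptide 1. Neither the dose nor the make-up of the vehicle was stated in the sources used here. Each library came from 1 mouse and from whole tissue, so fewer cells of a type and less mRNA per cell cannot be told apart.

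Ucp1 is the heat-producing protein of brown adipocytes. When fatty acids are released by lipolysis under noradrenaline, it lets protons pumped by the respiratory chain flow back into the matrix without ATP synthesis. Ucp2 and Ucp3 are close relatives that are not established as heat producers. Ucp2 is found in many tissues and is prominent in macrophages and lymphoid cells, where it is discussed as a brake on mitochondrial oxidant production. Ucp3 is typical of skeletal muscle and brown fat and is usually found where fatty acids are oxidised.

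In the mm10 coordinates of the files, Ucp1 (ENSMUSG00000031710) lay on chromosome 8 from 83290352 to 83298452. Ucp3 (ENSMUSG00000032942) spanned 100472990 to 100486432 and Ucp2 (ENSMUSG00000033685) 100493337 to 100502020 on chromosome 7. Both lay on the plus strand, with 6904 bases between them. The sequence upstream of each gene is shown because the 3 genes, neighbours included, differed in their values under cotadutide, described below. The sequences are from RefSeq on GRCm38.p6, plus strand, 5′ to 3′, and end just before the earlier of the RefSeq and the files' gene start, which left 250, 229 and 249 bases for Ucp1, Ucp2 and Ucp3. They cover chr8:83290098-83290347 for Ucp1, chr7:100493108-100493336 for Ucp2 and chr7:100472741-100472989 for Ucp3. Capitals mark, on either strand, the core of the cyclic AMP response element (TGACG, reverse CGTCA), the nuclear receptor hexamer (AGGTCA, reverse TGACCT) and the GC box (GGGCGG, reverse CCGCCC).
Ucp1: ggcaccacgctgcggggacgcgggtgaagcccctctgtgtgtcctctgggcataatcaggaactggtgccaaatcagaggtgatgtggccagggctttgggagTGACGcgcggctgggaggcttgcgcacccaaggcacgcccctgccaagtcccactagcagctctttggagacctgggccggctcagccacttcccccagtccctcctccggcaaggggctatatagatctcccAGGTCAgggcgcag
Ucp2: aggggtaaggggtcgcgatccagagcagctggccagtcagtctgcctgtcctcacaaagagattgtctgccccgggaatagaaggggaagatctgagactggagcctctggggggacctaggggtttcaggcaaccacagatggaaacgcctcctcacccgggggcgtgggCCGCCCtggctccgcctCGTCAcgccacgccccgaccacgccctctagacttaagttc
Ucp3: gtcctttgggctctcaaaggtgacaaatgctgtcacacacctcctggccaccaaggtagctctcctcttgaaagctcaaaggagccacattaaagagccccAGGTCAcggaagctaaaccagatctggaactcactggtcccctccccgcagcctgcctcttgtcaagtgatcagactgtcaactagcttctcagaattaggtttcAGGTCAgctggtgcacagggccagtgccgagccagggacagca
Both Ucp1 and Ucp2 held 1 TGACG match, a word found in 17.8% of the 250-base upstream windows of 32851 RefSeq promoters. Ucp1 held 1 AGGTCA match and Ucp3 held 2, against 14.0% of windows with any. The GC box was matched once, upstream of Ucp2 (32.7% of windows). No window of the 3 held TATAAA (12.4% of windows), the complete element TGACGTCA (1.55%), which contains the TGACG core, or a pair of hexamers (AGGTCA) in direct repeat with 1 base between them (0.0335%). The E-box (CANNTG, 66.2% of windows) was matched 2 times upstream of Ucp2, 3 times upstream of Ucp3 and 0 times upstream of Ucp1, and CCAAT (33.8%) in none of them. The Ucp2 and Ucp1 windows held 13 and 12 CpG dinucleotides, and the Ucp3 window held 3, against a median of 6 over all windows. A match describes letters only and is not evidence of binding.

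Ucp1 mRNA was among the most abundant of the tissue. By counts not divided by gene length, and leaving out genes of the mitochondrial chromosome, it ranked between 7 and 11 among all genes in vehicle libraries. In cotadutide libraries this rank was between 3 and 7. With the mitochondrial genes included it ranked between 14 and 18 in vehicle and between 9 and 13 in cotadutide libraries. Levels of different genes are compared per length, as CPM (the share of the library's total counts, scaled to 1000000) per kilobase of the longest principal GENCODE M21 transcript (1636 bases for Ucp1, 3988 for Ucp2 and 2448 for Ucp3). In vehicle mice this level was 2981 ± 480.3 for Ucp1, 50.0 ± 12.8 for Ucp3 and 16.3 ± 2.70 for Ucp2 CPM per kilobase (SD, n = 4). In cotadutide mice it was 3511 ± 372 for Ucp1, 76.4 ± 2.86 for Ucp3 and 12.4 ± 2.30 for Ucp2 CPM per kilobase (SD, n = 5). The order Ucp1, Ucp3, Ucp2 held in 9 of 9 libraries, also with the longer gene models of the files (6989 bases for Ucp2 and 3135 for Ucp3). Ucp1 exceeded Ucp3 by 39.9- to 73.7-fold, and Ucp3 exceeded Ucp2 by 2.36- to 7.33-fold, per kilobase of transcript. The gene models lengthen Ucp2 more than Ucp3, so they could only widen the gap between these genes. No other length was tried from the 11 annotated Ucp2 transcripts, so the order and fold of Ucp3 and Ucp2 rest on the lengths chosen. Of the counts of all 3 genes together, Ucp1 took between 95.5% and 96.7% in each library.

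Library totals ranged from 16.1 to 25.1 M counts in vehicle and from 10.8 to 19.5 M counts in cotadutide libraries. Mitochondrial genes took 17.5% to 21.1% of them. All 12 brown adipocyte markers looked for were detected in both groups, and 5 of them were higher under cotadutide. Of 14747 genes tested with edgeR's quasi-likelihood test (Benjamini-Hochberg adjusted p under 0.05), 18.7% were called, 9.31% as higher and 9.34% as lower. The groups did not overlap for 15.9% of genes, with cotadutide higher for 6.6% and lower for 9.32%. Of the 3 uncoupling protein genes, 1 was called (Ucp3), and it was also the only one of them whose groups did not overlap.

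Ucp3 rose under cotadutide. Vehicle mice 1 to 4 had 108, 94.9, 121 and 167 CPM, and cotadutide mice 1 to 5 had 191, 176, 186, 194 and 188 CPM. All treated libraries lay above all vehicle libraries, with vehicle mouse 4 the nearest. The means were 122 ± 31.3 (SD, n = 4) and 187 ± 6.99 CPM (SD, n = 5), a 1.59-fold difference by edgeR (log2 fold change 0.67, SE 0.16, 95% interval 0.33 to 1.01, adjusted p = 0.0206). The exact two-sided permutation p of the difference in log2 CPM was 0.00794, the smallest that 4 against 5 libraries can give. The spread was 25.6% of the mean in vehicle and 3.74% in cotadutide mice, where counting error alone is at most 2.27% for a library. The edgeR call was lost without vehicle mouse 1, 2 or 3 (log2 fold change 0.61, 0.55 and 0.64, adjusted p = 0.0699, 0.059 and 0.0577). With vehicle mouse 4 left out, Ucp3 stood at 0.89 on the log2 scale (edgeR adjusted p = 0.000294).

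Ucp1 was higher on average in cotadutide mice, and the difference did not pass the threshold. Vehicle mice 1 to 4 had 4991, 4671, 3975 and 5868 CPM, and cotadutide mice 1 to 5 had 6459, 6114, 4969, 5282 and 5894 CPM. The groups overlapped, since vehicle mouse 4 lay above cotadutide mice 3 and 4, and vehicle mouse 1 above cotadutide mouse 3. Means were 4876 ± 786 (SD, n = 4) and 5744 ± 609 CPM (SD, n = 5), and the fitted difference was 1.23-fold. The interval of the edgeR difference ran from 0.99- to 1.53-fold (log2 fold change 0.30, SE 0.14, adjusted p = 0.159; exact permutation p = 0.103 on log2 CPM). Leaving out vehicle mouse 4 took Ucp1 past the threshold (adjusted p = 0.0312 by edgeR, with a log2 fold change of 0.43).

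Ucp2 was lower on average in cotadutide mice, also short of the threshold. Vehicle mice 1 to 4 had 74.3, 65.4, 50.0 and 71.1 CPM, and cotadutide mice 1 to 5 had 62.7, 39.1, 49.3, 53.0 and 43.1 CPM. Vehicle mouse 3 lay below cotadutide mice 1 and 4, and the other 3 vehicle mice lay above every treated one. Means were 65.2 ± 10.8 (SD, n = 4) and 49.4 ± 9.16 CPM (SD, n = 5), which edgeR fitted as a log2 fold change of -0.34 (SE 0.15, 95% interval -0.66 to -0.02, unadjusted p = 0.0382, adjusted p = 0.117). The exact permutation p on log2 CPM was 0.0556. Without cotadutide mouse 1 Ucp2 passed (log2 fold change -0.46, edgeR adjusted p = 0.0371).

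**Figure D1:**
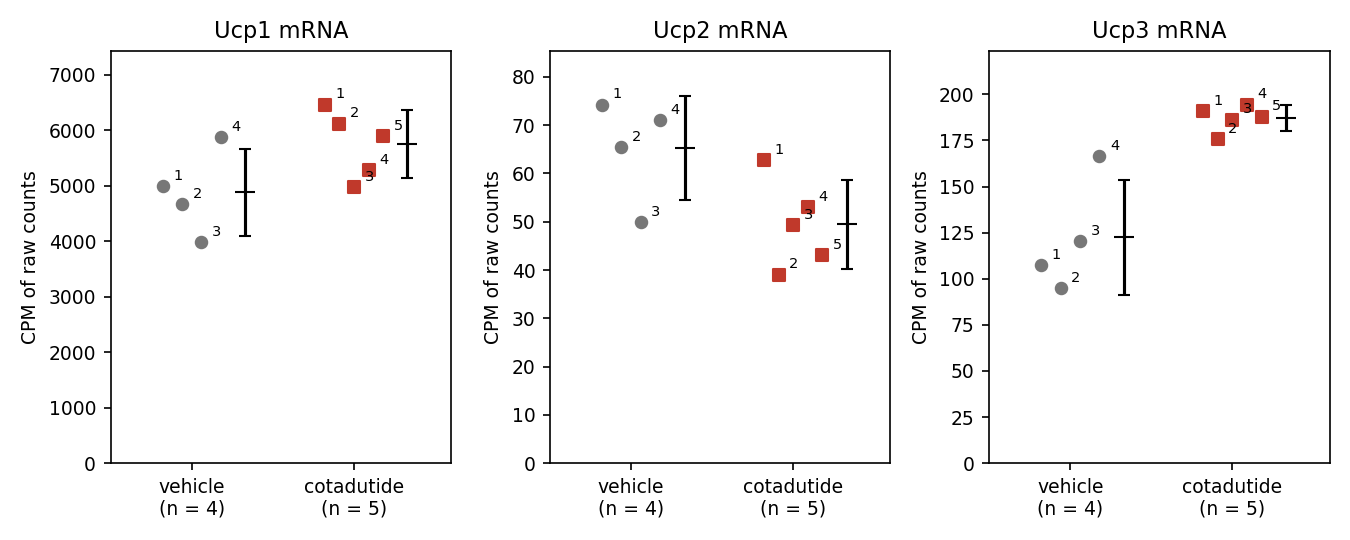
Ucp1, Ucp2 and Ucp3 mRNA in CPM (vertical axes, from 0) in 4 vehicle (grey circles) and 5 cotadutide libraries (red squares), numbered by mouse, with bars for mean ± SD. Ucp3 sits at 176 to 194 CPM in the treated mice, all above the vehicle range of 94.9 to 167 CPM, while the groups of Ucp1 and Ucp2 overlap.

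The proportions of the 3 mRNAs differed between the groups. Ratios were taken within each library, so that library totals and scaling cancel, and p-values were adjusted over the 3 ratios. Ucp2 counts as a percentage of Ucp1 counts were 1.49, 1.40, 1.26 and 1.21 in vehicle mice 1 to 4. They were 0.971, 0.639, 0.993, 1.00 and 0.732 in cotadutide mice 1 to 5. Every treated library lay below every vehicle library, and the ratio was 1.56 times lower (difference in log2 ratio -0.65, exact two-sided permutation p = 0.00794, adjusted p = 0.0119). Of single genes, 15.9% separated the groups in either direction, and the share over all pairs of genes was not counted.

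Ucp3 counts as a percentage of Ucp2 counts were 145, 145, 241 and 234 in vehicle mice 1 to 4. In cotadutide mice 1 to 5 they were 304, 450.1, 377, 367 and 436. These groups did not overlap either, and the ratio was 2.06-fold higher in treated mice (difference in log2 ratio 1.05, exact two-sided permutation p = 0.00794, adjusted p = 0.0119). Within the vehicle group, mice 1 and 2 had a lower ratio than mice 3 and 4. This is a test of unequal change in a pair of adjacent genes, and it does not say which of them changed.

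Ucp3 as a percentage of Ucp1 was 2.15, 2.03, 3.03 and 2.84 in vehicle mice 1 to 4 and 2.95, 2.88, 3.75, 3.68 and 3.19 in cotadutide mice 1 to 5. Here vehicle mouse 3 overlapped the treated range, and the ratio was 1.32-fold higher (difference in log2 ratio 0.40, exact two-sided permutation p = 0.0476, adjusted p = 0.0476). Leaving out 1 mouse ended this call for 8 of 9 mice, all but vehicle mouse 3. Leaving out vehicle mouse 1 took the other ratios to an adjusted p of 0.0536 (exact permutation), with differences in log2 ratio of -0.59 for Ucp2 to Ucp1 and 0.93 for Ucp3 to Ucp2.

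**Figure D2:**
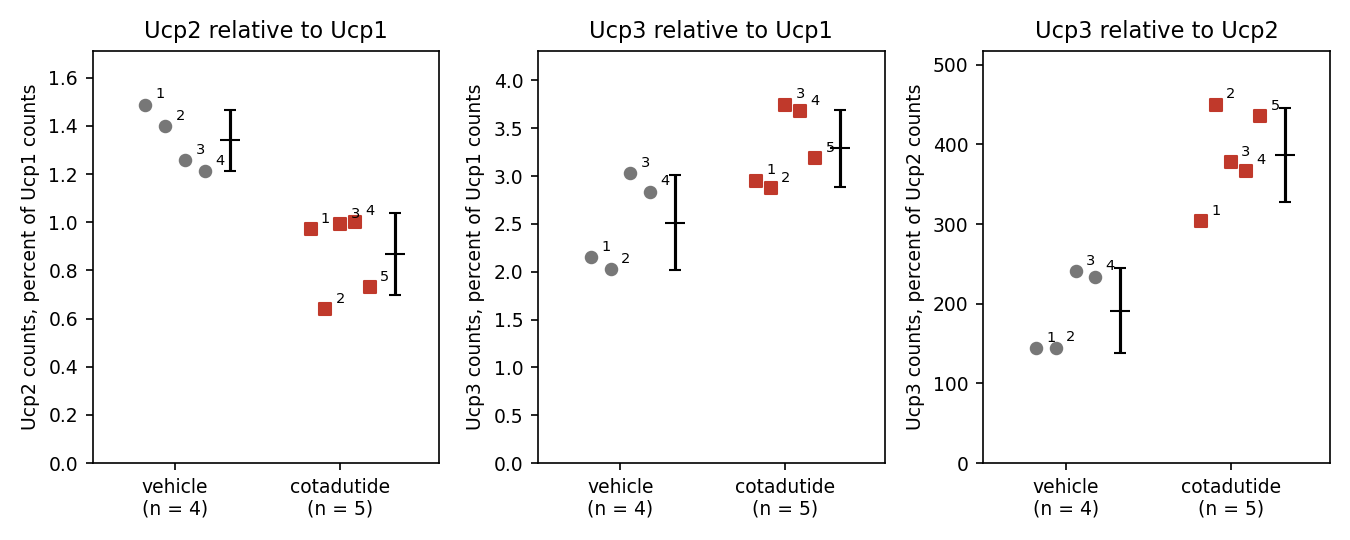
Counts of one uncoupling protein gene as a percentage of the counts of another (vertical axes, from 0) in each library, with bars for mean ± SD of 4 vehicle (grey circles) and 5 cotadutide mice (red squares). Ucp2 relative to Ucp1 runs from 1.21% to 1.49% in vehicle and from 0.639% to 1.00% in cotadutide mice, and Ucp3 relative to Ucp2 from 145% to 241% and from 304% to 450.1%.

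Over the 9 libraries, none of the 3 pairwise correlations of log2 CPM passed the threshold after adjustment over the pairs. Ucp1 and Ucp3 gave a Pearson r of 0.67 (exact permutation p = 0.0526, adjusted p = 0.158) and a Spearman rho of 0.60 (exact permutation p = 0.0968, adjusted p = 0.29). As deviations from the group means, which take out the treatment, r was 0.42 (exact permutation p = 0.449, adjusted p = 0.673). Without vehicle mouse 4 that within-group r became -0.45. For Ucp2 and Ucp3, r was -0.49 (exact permutation p = 0.178, adjusted p = 0.266) and rho -0.43 (exact permutation p = 0.25, adjusted p = 0.375), and the deviations gave 0.16 (exact permutation p = 0.705, adjusted p = 0.705). For Ucp1 and Ucp2, r was -0.10 (exact permutation p = 0.794, adjusted p = 0.794) and rho -0.22 (exact permutation p = 0.581, adjusted p = 0.581), and the deviations gave 0.45 (exact permutation p = 0.246, adjusted p = 0.673). Without the 2 libraries farthest from the median of the first gene, r was 0.65 for Ucp1 and Ucp3, -0.30 for Ucp2 and Ucp3, and -0.52 for Ucp1 and Ucp2. Without these libraries the within-group r of Ucp1 and Ucp2 turned from 0.45 to -0.46 (exact permutation p = 0.285), so its sign rests on vehicle mouse 3 and cotadutide mouse 1 together.

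**Figure D3:**
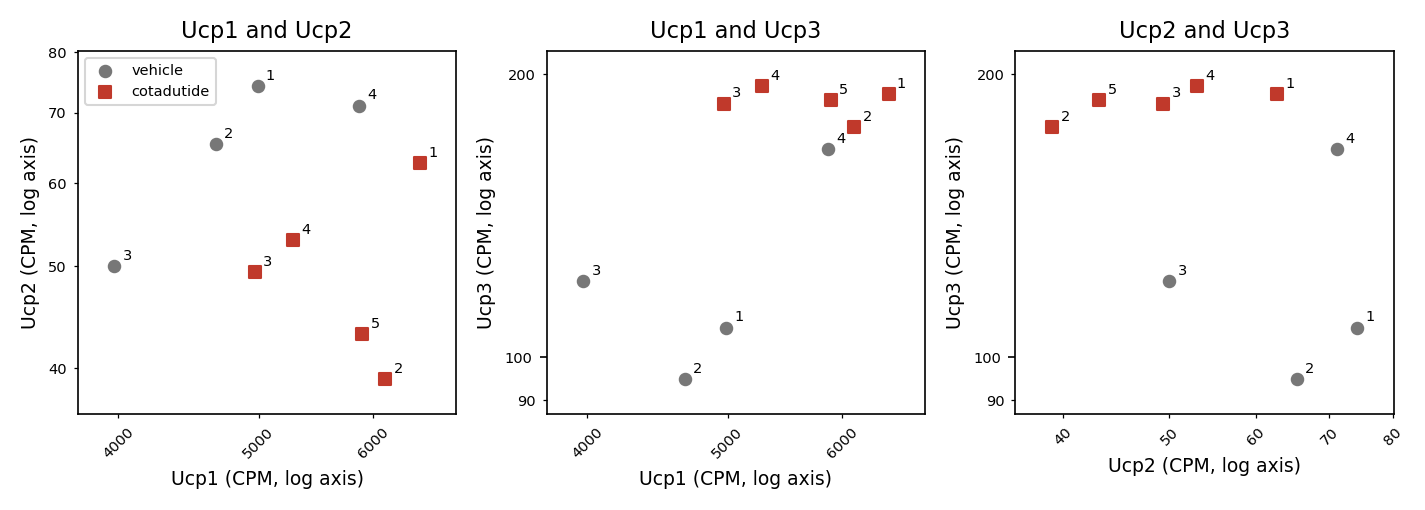
Each panel sets the CPM of one gene against another (log axes) for 4 vehicle (grey circles) and 5 cotadutide libraries (red squares), numbered by mouse. Ucp1 and Ucp2 show no common trend (r = -0.10), and in the panels with Ucp3 the treated libraries form a flat band between 176 and 194 CPM.

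Markers of some other cell types also differed between the groups. Over all genes 9.31% were called higher and 9.34% lower, the shares beside which the marker counts below stand. Skeletal muscle markers, which matter for Ucp3, summed to 25650 to 50211 CPM in vehicle and 5792 to 21636 CPM in cotadutide libraries, and 9 of 17 fell while 0 rose. All 17 were high enough to be tested. Ucp3 moved the opposite way, although vehicle mouse 4 had both the highest muscle sum and the highest Ucp3 of its group. When a muscle score per library was added to the model, the log2 fold change of Ucp3 was 0.90 (unadjusted p = 0.00216, edgeR adjusted p = 0.314). In the same fit Ucp1 stood at 0.57 (unadjusted p = 0.0181, edgeR adjusted p = 0.335) against 0.30 without the score, and Ucp2 at -0.14 (unadjusted p = 0.529, edgeR adjusted p = 0.789) against -0.34. No gene was called in that fit, and 1963 had an unadjusted p under 0.05. Since the groups do not overlap on the muscle sum, treatment and muscle share cannot be cleanly told apart in that fit.

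Macrophage markers, which matter for Ucp2, summed to 391 to 627 CPM in vehicle and 228 to 475 CPM in cotadutide libraries, and 7 of 14 fell while 0 rose. All 14 were high enough to be tested. Ucp2 followed this sum over the libraries (Pearson r = 0.87, exact permutation p = 0.00391, adjusted p = 0.0117; Spearman rho = 0.87, exact permutation p = 0.00451, adjusted p = 0.0135), a relation chosen after the values were seen and adjusted over 3 such relations. Within groups, the deviations gave r = 0.76 (exact permutation p = 0.0292, adjusted p = 0.0875), and without the 2 libraries farthest from the median macrophage sum r was 0.86. With the macrophage score as a covariate, the log2 fold change of Ucp2 was -0.01 (unadjusted p = 0.974, edgeR adjusted p = 0.992) and that of Ucp3 0.64 (unadjusted p = 0.0204, edgeR adjusted p = 0.548). Ucp1 stood at 0.51 in that fit (unadjusted p = 0.0339, edgeR adjusted p = 0.548). No gene was called in that fit, and 1335 had an unadjusted p under 0.05. On the macrophage sum only cotadutide mouse 1 reached the vehicle range, so treatment and macrophage share cannot be cleanly told apart in that fit. Lymphocyte markers, another possible site of Ucp2, summed to 4.25 to 6.65 CPM in vehicle and 4.23 to 53.2 CPM in cotadutide libraries, the highest being mouse 3. Their part in the result was not tested.

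Markers shared by brown and white adipocytes summed to 20394 to 22326 CPM in vehicle and 26385 to 28205 CPM in cotadutide libraries, with 5 of 10 higher and 0 lower. Since the groups do not overlap on this sum, a change in Ucp1 or Ucp3 and a change in adipocyte mRNA share cannot be told apart. With this sum's score as a covariate the log2 fold change was -0.31 for Ucp1 (unadjusted p = 0.383), -0.23 for Ucp2 (unadjusted p = 0.594) and -0.01 for Ucp3 (unadjusted p = 0.982). In that edgeR fit the number of called genes was 0, and the unadjusted p was under 0.05 for 659. Over all 9 libraries, Pearson r between Ucp1 and the adipocyte sum was 0.61 (exact permutation p = 0.0788, adjusted p = 0.118). Between Ucp3 and the muscle sum it was -0.50 (exact permutation p = 0.173, adjusted p = 0.173). Deviations from group means gave r = 0.23 for Ucp1 and the adipocyte sum (exact permutation p = 0.643, adjusted p = 0.643). For Ucp3 and the muscle sum they gave 0.41, opposite in sign to the value over all libraries (exact permutation p = 0.0799, adjusted p = 0.12).

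**Figure D4:**
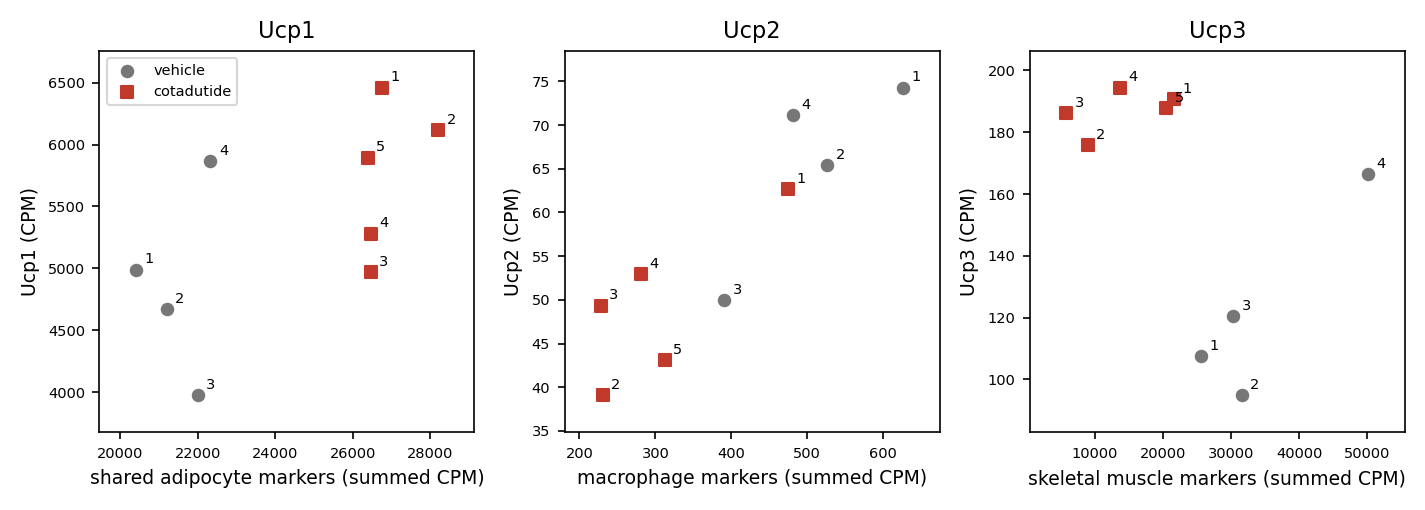
CPM of Ucp1, Ucp2 and Ucp3 (vertical axes) against the summed CPM of adipocyte, macrophage and skeletal muscle markers (horizontal axes) in 4 vehicle (grey circles) and 5 cotadutide libraries (red squares); axes do not start at 0. Ucp2 climbs with the macrophage sum across both groups (r = 0.87), while Ucp3 is high in the treated mice, whose muscle sums are the lowest (5792 to 21636 CPM).

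Genes around the uncoupling proteins were described by 8 lists. They covered transcription, adrenergic signalling, fatty acid supply, the respiratory chain with ATP synthase, related carriers, other heat-producing cycles and antioxidant enzymes. Of their 118 tested genes, 28 were higher and 10 lower by edgeR, or 32.2%, beside 18.7% of all genes. Over all genes 9.31% were higher and 9.34% lower, the shares beside which the count of each list below stands. The median log2 fold change over these genes was 0.16, beside 0.0031 over all genes. The lists were chosen with earlier results of these data known, so these comparisons are not a test of enrichment. Of the 30 called genes of these lists named in the following paragraphs, 26, 27 and 23 lost their call when vehicle mouse 1, 2 or 3 was left out, and 17 and 12 when cotadutide mouse 2 or 3 was left out. All 30 kept their call with DESeq2 and limma-voom, and none of them was called with the muscle or the macrophage score as a covariate. Without the filter on low counts 10 of the 30 lost their call, and 15 did with the mouse number as a replicate block.

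Of the activators of Ucp1 transcription, 7 of 24 tested rose and 0 fell (median log2 fold change 0.24). They included Irf4, a transcription factor of the thermogenic program (13.7 ± 6.65 against 106 ± 82.4 CPM, 8.26-fold, edgeR adjusted p = 0.019), and Ppargc1b, a coactivator of mitochondrial genes (36.8 ± 1.61 against 53.6 ± 11.3 CPM, 1.53-fold, edgeR adjusted p = 0.0198). The adipogenic factors Cebpa (1.33-fold) and Cebpb (1.82-fold) rose too. The log2 fold change of Irf4 was 3.05, and 1.35 with the muscle score or 0.84 with the macrophage score as a covariate. For Cebpb these values were 0.86, 0.35 and 0.21, and for Ppargc1b 0.61, 0.35 and 0.24. Irf4 and Cebpb were among the 10 named genes not called without the filter on low counts (edgeR adjusted p = 0.0747 and 0.0697). Foxc2 was too low to be tested. Of the repressors, 2 of 12 rose and 1 fell (median log2 fold change 0.0073), beside 18.7% of all genes called. Zfp423, a zinc finger factor that holds back the brown program in white fat cells, was 1.45 times lower (edgeR adjusted p = 0.0184). The nuclear receptor genes Nr2f6 (1.30-fold) and Nr1h3 (1.37-fold), which encodes a sterol receptor, rose.

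Along the adrenergic route to Ucp1, 3 of 17 genes rose and 2 fell (median log2 fold change 0.20), beside 18.7% of all genes called. Akap1, which anchors protein kinase A at the mitochondrial surface, rose 1.45-fold (edgeR adjusted p = 0.014), and the adenylate cyclase gene Adcy3 rose 1.65-fold. The third gene that rose, named after its values were seen, was Prkar2b, a regulatory subunit of protein kinase A (1.31-fold, edgeR adjusted p = 0.0446). The kinase genes Map2k6 (log2 fold change -1.12, edgeR adjusted p = 0.0122) and Map2k3 (1.41 times lower), which act upstream of stress-activated MAP kinase, fell. With the muscle score the log2 fold change of Map2k3 was -0.05 against -0.49 without it, and that of Map2k6 was -1.12 in both fits. Of the genes that release, take up and import fatty acids, 7 of 17 rose and 0 fell (median log2 fold change 0.34). They included the transporters Slc27a1 (1.80-fold) and Slc27a2 (2.56-fold), the lipase gene Pnpla2 (1.40-fold) and its activator Abhd5 (1.59-fold).

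The respiratory chain builds the proton gradient that uncoupling proteins can dissipate. Of 15 genes of this chain and of ATP synthase, 6 rose and 0 fell (median log2 fold change 0.29). The genes not called included Atp5a1 and Atp5b of ATP synthase and Atpif1, which encodes its inhibitor. Cox8b, a cytochrome c oxidase subunit of brown fat and muscle, rose 1.90-fold (edgeR adjusted p = 0.0247), Cox4i1 1.58-fold, Ndufv1 1.32-fold and Cyc1 1.31-fold. With the muscle score the log2 fold change of Ndufv1 was 0.17 against 0.40 without it. Of 11 related mitochondrial carriers, 0 rose and 2 fell (median log2 fold change -0.10), a share near the 18.7% of all genes called. The carriers that fell were Slc25a12, an aspartate-glutamate carrier (78.0 ± 8.46 against 31.1 ± 15.6 CPM, 2.40 times lower, edgeR adjusted p = 0.024), and Slc25a4, the ADP/ATP carrier of heart and muscle (1.58 times lower, edgeR adjusted p = 0.0288). With the muscle score as a covariate their log2 fold changes were -0.22 and -0.09, against -1.27 and -0.66 without it.

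Of genes of other heat-producing cycles, 1 of 12 rose and 5 fell (median log2 fold change -0.53). Ckb, a creatine kinase of the creatine cycle, rose 2.48-fold (edgeR adjusted p = 0.0223). Gamt, which makes creatine, was 1.74 times lower (edgeR adjusted p = 0.014), its transporter Slc6a8 1.61 times lower and the calcium channel gene Ryr2 1.51 times lower. The other genes that fell, named after their values were seen, were Ryr1 (2.28 times lower) and Ckmt2 (2.77 times lower), a calcium channel and a mitochondrial creatine kinase abundant in muscle. With the muscle score as a covariate the log2 fold changes were 1.25 for Ckb, -0.72 for Gamt, -0.70 for Ryr2 and -0.24 for Slc6a8. They were 0.0042 for Ryr1 and -0.20 for Ckmt2, against -1.19 and -1.47 without it. Ryr1 is itself among the markers of that score, so its value in that fit says nothing about Ryr1. Of the antioxidant enzymes, 2 of 10 rose and 0 fell (median log2 fold change 0.15), a share near the 18.7% of all genes called. They were Sod1, a superoxide dismutase (1.49-fold, edgeR adjusted p = 0.0192), and the peroxiredoxin gene Prdx5 (1.35-fold, edgeR adjusted p = 0.0345).

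**Figure D5:**
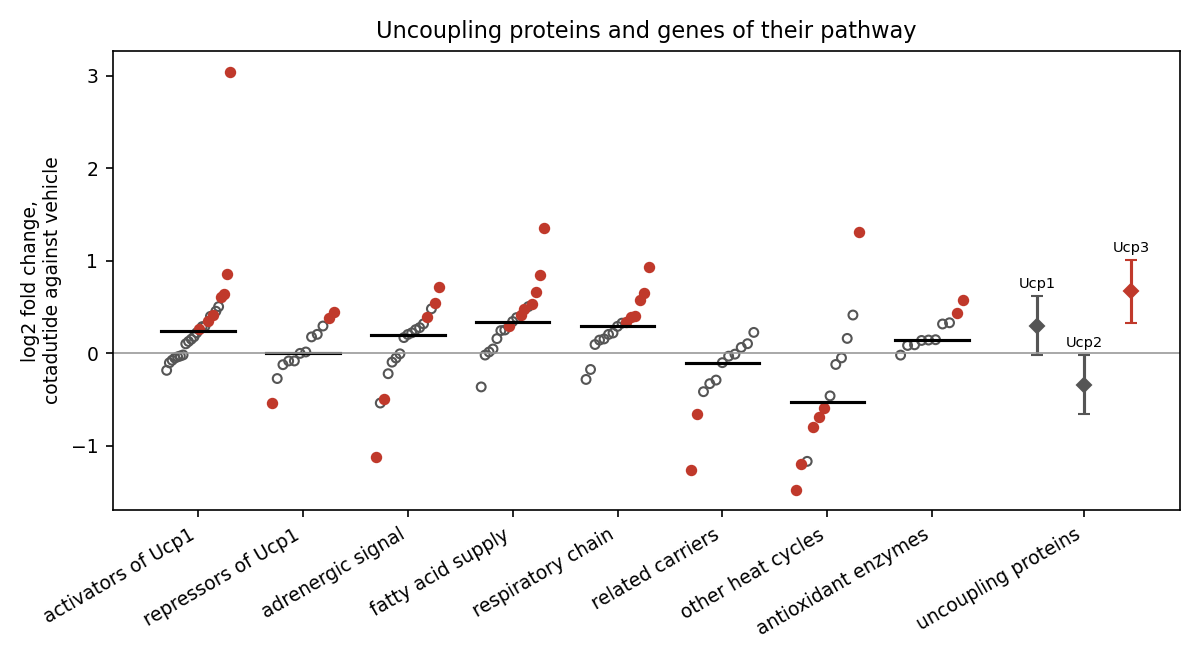
Log2 fold changes of cotadutide against vehicle by edgeR (vertical axis) for the members of 8 gene lists and for Ucp1, Ucp2 and Ucp3 (diamonds with 95% intervals); filled red symbols passed an adjusted p of 0.05 and black lines are list medians. Ucp3 lies at 0.67, above the medians of all 8 lists, and Ucp2 at -0.34, below the medians of all but the other heat cycles.

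The nearest tested genes that do not overlap the uncoupling protein genes were not called. Beside Ucp1 these were Tbc1d9 (log2 fold change -0.27, SE 0.18, edgeR adjusted p = 0.316) and Elmod2 (0.18, SE 0.10, adjusted p = 0.243). Beside the Ucp3 and Ucp2 pair they were C2cd3 (-0.11, SE 0.13, adjusted p = 0.586) and Coa4 (0.40, SE 0.16, adjusted p = 0.0933), which passed without vehicle mouse 4 (0.52, edgeR adjusted p = 0.0283). A minus-strand gene, Dnajb13, shared 305 exon bases with Ucp2, or 4.36% of its model, and had 416 counts over all libraries against 9544 for Ucp2. Its level was 2.99 ± 1.01 CPM in vehicle (SD, n = 4) and 2.04 ± 0.796 CPM in cotadutide mice (SD, n = 5), and it was not called (edgeR adjusted p = 0.244).

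Another minus-strand gene, Gm10603, reached from the side of C2cd3 into Ucp3 without sharing exon bases with it, and it rose with Ucp3. It had 1053 counts over all libraries against 24893 for Ucp3. Vehicle mice 1 to 4 had 4.90, 4.85, 4.61 and 5.82 CPM, and cotadutide mice 1 to 5 had 8.12, 8.67, 8.33, 7.27 and 7.25 CPM. The groups did not overlap, and the difference was 1.65-fold (0.72 on the log2 scale with an SE of 0.13, edgeR adjusted p = 0.0147), beside 1.59-fold for Ucp3. This call was lost without vehicle mouse 1 or 2 (edgeR adjusted p = 0.0518 and 0.0514). The strand setting of the counting is not given in the sources used here, so reads of these genes and of unspliced RNA from the opposite strand cannot be told apart.

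The genes whose deviations from the group means were most like each uncoupling protein over the 9 libraries were named from 9677 other genes. They were Spag7, Mrps34, Ogfod3, S100a16 and Cluap1 for Ucp1 (r from 0.954 to 0.959), and Ccdc51, R3hcc1l, Dnajb11, Hey1 and Pigt for Ucp2 (0.88 to 0.937). For Ucp3 they were Dym, Zfp213, Pdk2, Pabpc4 and Hoxa7 (0.939 to 0.981). The 99th percentile of r over all genes compared was 0.895 for Ucp1, 0.742 for Ucp2 and 0.838 for Ucp3. Leaving out 1 library kept 0 to 2 of the 5 for Ucp1, 0 to 3 for Ucp2 and 1 to 4 for Ucp3, so these names describe this set of libraries only.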

How the data were processed

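Polyadenylated RNA from 30 mg of tissue per mouse was sequenced, 1 library per mouse. The deposited files hold whole-number read counts by Ensembl identifier with the length of each gene model, per the file headers. Tools in the submitters' processing notes are STAR 2.5.2b and Subread 1.5.2 (featureCounts), after Trimmomatic 0.36 and bcl2fastq 2.17, with the mm10 build. How strand was set and which annotation release was used is not given in the sources used here. Symbols were matched for 48970 identifiers.

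CPM are counts divided by the raw library total and multiplied by 1000000. Genes kept by filterByExpr were tested with edgeR 4.0.16 (glmQLFTest after a robust glmQLFit, TMM scaling, group as the only term; R 4.3.3). Each SE comes from the log2 fold change and the square root of its F. Ratios and correlations were tested over all splits or orders of the libraries, two-sided. Alternatives were DESeq2 1.42.0, limma-voom (limma 3.58.1), other scalings and filters, covariates, a block and leaving out each library. A score is the mean log2 CPM of the tested genes of a marker list in a library. Libraries differed by more than counting noise (lowest chi-square per degree of freedom 12.2), which is the only error that depth sets.

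The members and gene lists were chosen with earlier results of these data known. The text names, from each list, at most 4 called genes by adjusted p, or the 2 most abundant if fewer than 2 passed, plus Ryr1, Ckmt2 and Prkar2b, added after their values were seen, the nearest tested neighbours, the genes that overlap a member and the 5 most alike protein-coding genes with a mean of at least 5 CPM. The other marker lists were of neutrophils (0 of 3 tested called), endothelial cells (1 of 8 higher), fibroblasts (0 of 7), mural cells (0 of 6), erythroid cells (0 of 5) and white adipocytes (3 of 7 lower). The fibroblast markers, though not called, had 0 positive log2 fold changes and a median of -0.67. They summed to 1015 to 1573 CPM in vehicle and 547 to 1257 CPM in cotadutide libraries, and their relation to Ucp2 was not tested. Foxc2 and Ckmt1 did not pass the filter.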

Additional observations from a re-analysis of the deposited data

Results flagged for a closer look

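In 3 of the 24 groups of values checked, 1 library stood apart from the rest of its group, where chance gives about 1 in 20. The summed lymphocyte markers of cotadutide mouse 3 were 53.2 CPM, against 4.23 to 4.98 CPM in the other treated mice. Its Ucp2 level of 49.3 CPM lay inside the range of its group. The shared adipocyte markers of cotadutide mouse 2 summed to 28205 CPM, against 26385 to 26746 CPM, and this mouse had the lowest Ucp2 of all (39.1 CPM). The white adipocyte markers of vehicle mouse 4 summed to 274 CPM, where vehicle mice 1 to 3 had 776 to 828 CPM, and this mouse had the highest Ucp1 (5868 CPM) and Ucp3 (167 CPM) of its group. The Ucp values themselves and their ratios had no such library.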

How the results depend on the processing

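The log2 fold changes of Ucp3 and Ucp1 stayed positive and that of Ucp2 negative under every alternative but the adipocyte score below. DESeq2, limma-voom, other scalings and the filter left the side of the threshold of all 3 genes as it was. Leaving out 1 library moved Ucp1 between 0.20 and 0.43, Ucp2 between -0.47 and -0.27 and Ucp3 between 0.55 and 0.89. Ucp3 was not called with the muscle score (0.90) or the macrophage score (0.64) as a covariate. The muscle marker sum does not overlap between the groups. With the shared adipocyte score, an alternative chosen after seeing the data, Ucp1 (-0.31) and Ucp3 (-0.0085) changed sign; the cause was not tested, and that score does not overlap between the groups. Ryr1, itself among the markers of the muscle score, changed sign with that score (0.0042), so that value says nothing about Ryr1. Dnajb13 changed sign with the macrophage score (0.12), and the cause was not tested. Dropping the muscle marker genes from the totals, also added later, left Ucp3 at 0.67.

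Leaving out 1 library moved the difference in log2 ratio between -0.70 and -0.54 for Ucp2 to Ucp1, 0.30 and 0.50 for Ucp3 to Ucp1, and 0.93 and 1.17 for Ucp3 to Ucp2. It moved the pooled r between -0.31 and 0.13 for Ucp1 and Ucp2, which turned positive without cotadutide mouse 2 (0.13) or 5 (0.0058), between 0.64 and 0.75 for Ucp1 and Ucp3, and between -0.59 and -0.33 for Ucp2 and Ucp3. The within-group r ran from 0.10 to 0.68 for Ucp1 and Ucp2, from -0.45 to 0.56 for Ucp1 and Ucp3 and from -0.11 to 0.29 for Ucp2 and Ucp3, the last 2 negative only without vehicle mouse 4.

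The number of genes called was 2751, and 139 to 3704 without 1 library (139 without vehicle mouse 1, 147 without vehicle mouse 2, 738 without vehicle mouse 3, 814 without cotadutide mouse 2 and 1364 without cotadutide mouse 3). It was 0 with the muscle, macrophage or adipocyte score. Of the genes of the 8 lists, 38 were called, 3 to 49 without 1 library, 23 without a filter on low counts and 0 with each score. Without scaling beyond the raw total, 38.7% of called genes were higher, against 49.9%, with 1046 higher and 1658 lower; without a filter these were 900 and 1264.

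Same-numbered mice of the groups share only a number: their deviations correlated at 0.14, -0.04, 0.02 and -0.01. With the number as a replicate block over 8 libraries, edgeR called 1355 genes and 17 list genes, Ucp1, Ucp2 and Ucp3 stood at 0.27, -0.32 and 0.68, and Ucp3 kept its call. The paired differences in log2 ratio were -0.59 (Ucp2 to Ucp1), 0.41 (Ucp3 to Ucp1) and 1.00 (Ucp3 to Ucp2), each with an exact permutation p of 0.125, the smallest that 4 pairs allow.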
